A study of Homo sapiens with 2 samples.

Results

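The regions described are the HNRNPK ChIP-seq peaks that lie outside the assembled chromosomes, together with those on chromosome 21 below 9 Mb. A peak was a member if its sequence was not one of chromosomes 1 to 22, X or Y, or if it was on chromosome 21 with a midpoint below 9000000 in GRCh38. This gave 308 of the 22351 peaks of the list, or 1.38%, of which 252 were on 56 contigs and 56 on chromosome 21. The cells were H1299, a line established from human lung cancer, and were untreated. One group was the HNRNPK IP, pulled down with the Proteintech HNRNPK antibody, and the other was the input, chromatin with no antibody, with 1 library in each. There were no replicates, so every value describes this pair of libraries and no test between conditions was possible.

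Contigs are assembled pieces that could not be placed on a chromosome (unplaced) or could be assigned to one without a position (unlocalized), and many hold repeats. The short arms of the acrocentric chromosomes carry tandem copies of the ribosomal DNA unit, in which the 45S gene gives the 18S, 5.8S and 28S ribosomal RNAs and an intergenic spacer separates it from the next copy. HNRNPK is a nucleic acid-binding protein with KH domains and a preference for C-rich sequence. The genome assembly holds far fewer ribosomal DNA copies than a human cell does, so reads from many copies fall on the few that are assembled, and a read cannot be assigned to 1 copy with certainty.

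The microRNA genes annotated in or beside the 45S gene serve here as landmarks of the unit. RefSeq sequences are printed for some of them (GRCh38.p14, plus strand). Of those printed, only the MIR10396A and MIR10396B hairpins are compared with each other. The mature miRNAs have the seed, bases 2 to 8, in capitals. The hairpins of MIR10396A and MIR10396B have in capitals the run of 48 bases that they share.
hsa-miR-6724-5p (MIR6724-4, chr21:8432540-8432562): cUGGGCCCgcggcgggcgugggg
hsa-miR-3648 (MIR3648-2, chr21:8987026-8987046): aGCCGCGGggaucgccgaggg
MIR10396B hairpin (chr21:8436324-8436374): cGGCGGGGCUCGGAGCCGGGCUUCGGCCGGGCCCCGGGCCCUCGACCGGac
MIR10396A hairpin (chr21:8987617-8987665): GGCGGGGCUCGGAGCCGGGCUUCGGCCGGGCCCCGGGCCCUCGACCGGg
The GC content of the hairpins was 86.3% for MIR10396B and 87.8% for MIR10396A. MIR6724-1 and MIR6724-3 each ended 581 bp before a 45S gene, RNA45SN2 and RNA45SN3, and MIR6724-4 ended 600 bp before RNA45SN1. MIR6724-2, with the same hairpin sequence as MIR6724-4, lay 43517 bp past the start of RNA45SN2, its nearest 45S gene. MIR3648-1 began 2485 bp and MIR10396B 3102 bp past a 45S start. Sequences of the peaks themselves were not used here.

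The members stood on a higher local background than the rest of the list. The local background, the coverage against which the peak caller set the IP, was worked out for each peak by adding 1 to the pileup, dividing by its fold enrichment and taking 1 away. Its median was 3.50 over the members (95% interval of the median, 3.0 to 4.0), 1.26 over the 22043 other peaks and 1.16 over the 255 peaks on the rest of chromosome 21. The pileup, the IP coverage at the peak in scaled fragments, had a median of 14.1 in the members (12.7 to 15.6) against 7.79 in both comparison sets. Fold enrichment ran the other way. Its median was 3.15 in the members (2.97 to 3.26), 3.58 in the other peaks and 3.73 on the rest of chromosome 21.

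An FDR under 0.05 was given to 155 members, or 50.3% (Wilson 95% interval, 44.8% to 55.9%), against a background of 15.5% over the whole list. At an FDR of at most 1e-05 there were 78 members among 242 peaks, which were 1.08% of the list. By contrast 12 members, or 3.90%, had a fold enrichment of at least 5, near the 3.19% of the whole list. Among the 100 peaks with the highest pileup 78 were members, and among the 100 with the highest fold enrichment 2 were. All intervals cover counting error only.

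**Figure D1:**
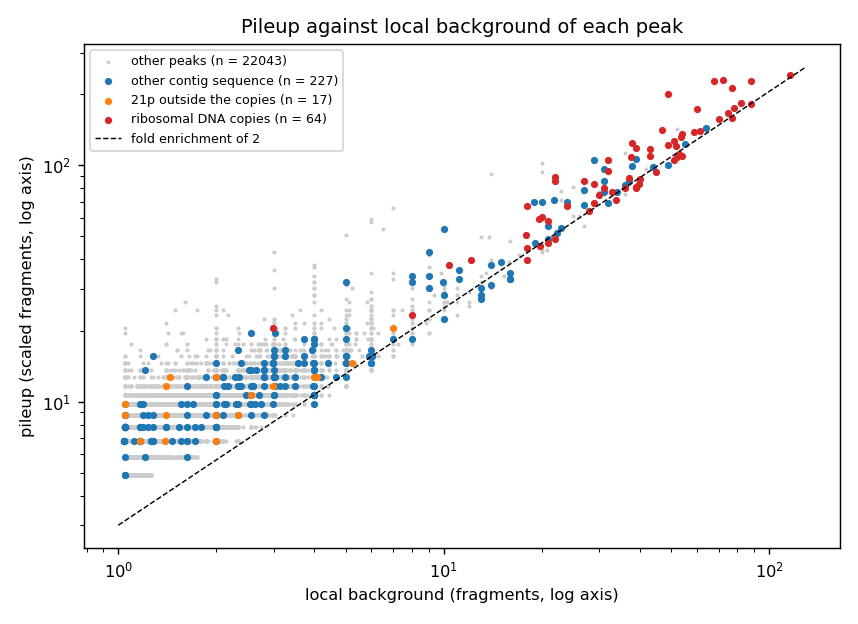
Each point is 1 peak, with its local background in fragments on the x axis and its pileup in scaled fragments on the y axis. Both axes are log. Colours separate the 64 peaks in ribosomal DNA copies and 227 on other contig sequence. They also separate 17 on chromosome 21 below 9 Mb outside the copies from the 22043 other peaks. Of the 64 ribosomal DNA peaks 62 have a background of 10 or more, and the dashed line is a fold enrichment of 2.

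The ribosomal DNA name applied to 64 of the 308 members. The gene table placed 3 complete 45S genes and an 18S pseudogene, RNA18SP5, on chromosome 21 below 9 Mb. RNA45SN4 and RNA18SP4 were set on KI270733.1 and RNA45SN5 and RNA18SP3 on GL000220.1 from knowledge of the assembly, since the table names no contig. In 4 pairs neighbouring 18S copies were 44.0 to 45.1 kb apart, while RNA18SP5 and RNA18SN3 were 139 kb apart and were not used for the length of the unit. The 45S gene itself spanned 13.3 to 13.4 kb. A peak was counted in a copy if its midpoint lay from 8 kb before an 18S start up to the same point of the next unit. This held for 39 of the 56 chromosome 21 peaks, 15 of the 17 on KI270733.1 and 10 of the 11 on GL000220.1.

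All 64 ribosomal DNA peaks had an FDR under 0.05. The FDR rests on the same pileup and background as the fold enrichment, and the list holds no fold under 2.0. At the background of most of these peaks that share therefore says little beyond being listed. All 76 members with a background of 20 or more passed, but they include ribosomal DNA peaks themselves and are no separate comparison. The 64 peaks had a median pileup of 93.9, a median local background of 39.0 and a median fold enrichment of 2.45. The 244 members outside the copies had medians of 12.2, 2.80 and 3.38, and 91 of them, or 37.3% (31.5% to 43.5%), had an FDR under 0.05. The whole list, ribosomal DNA peaks included, had 15.5%.

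Within the unit the listed peaks lay in the 45S gene and in the intergenic spacer. Seen from the 18S start, 41 peaks were in the spacer after the 45S gene, 6 in the spacer just before it, and 17 within the stretch of the 45S gene, pseudogene copies included. The last make 26.6% of the 64 (17.3% to 38.5%). In the 5 complete copies 13 of 59 peaks were within the gene, or 22% (13.4% to 34.1%), and the gene takes up 30.2% of a unit's length. Median pileup was 109 in the spacer after the gene and 79.8 within it, with overlapping ranges of 23.4 to 241.43 and 38.0 to 140.18. Median local background was 43.0 and 36.0, and median fold enrichment 2.5 and 2.30. These medians come from unlike mixes of sequences. GL000220.1, with the highest median pileup, gave 8 of the 41 spacer peaks and 0 of the 17 within the gene. How far the assembled spacer reaches beyond the last copy was not analysed here.

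Of the peaks within the gene, 7 overlapped a 28S gene, 1 overlapped the 18S gene RNA18SN1 and 0 overlapped a 5.8S gene. RNA45SN2 held 4 peaks, RNA45SN1 4, RNA45SN3 3 and RNA45SN4 2. RNA45SN5 held 0, although the 10 peaks around it had the highest median pileup of the ribosomal DNA sequences, 142 against 108 on KI270733.1 and 85.7 on chromosome 21. In the gap between listed peaks that contains this gene 3 peak numbers are absent from the list, and that gap is wider than the gene. Gaps that meet the other genes hold 6 absent numbers at RNA45SN4, 4 at RNA45SN2, 2 at RNA45SN1 and 1 at RNA45SN3. Where in a gap an absent peak lay is not known, so all counts and shares within the unit are of listed peaks.

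**Figure D2:**
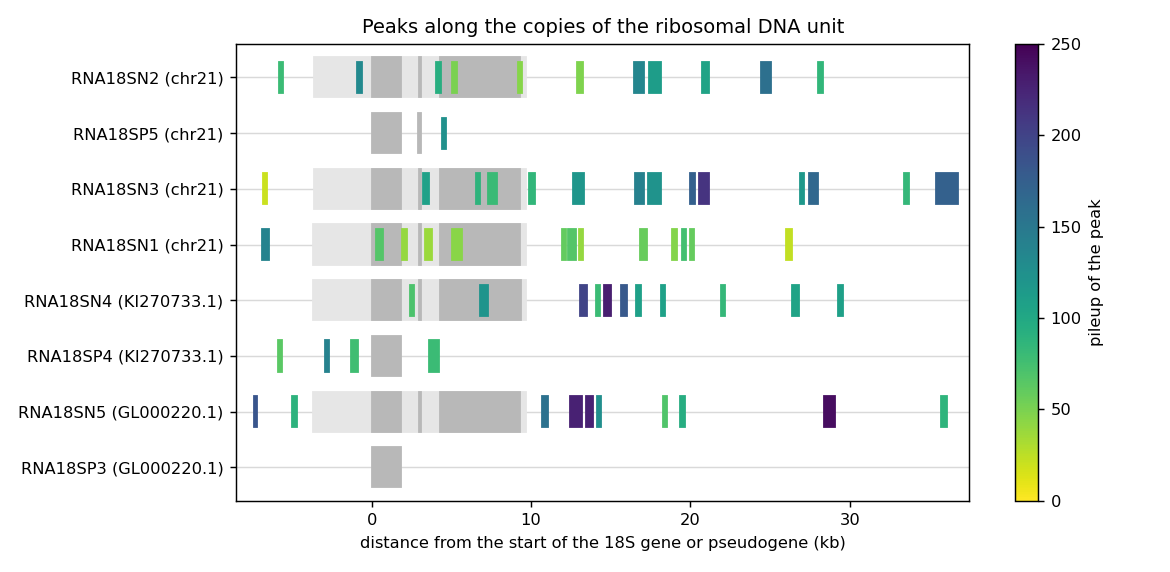
Peaks (coloured bars, drawn to scale, coloured by pileup) in 8 copies of the ribosomal DNA unit, placed by distance in kb from the start of the 18S gene or pseudogene; light grey is the 45S gene and dark grey its annotated 18S, 5.8S and 28S parts. The stretch 12.1 to 13.7 kb past the 18S start holds a peak in each of the 5 complete copies.

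Peaks of different copies often fell at like positions in the unit. Measured from the nearest 45S start, and joining peaks up to 500 bp apart, the 64 peaks formed 41 positions. Of these, 13 were shared by 2 or more copies and held 36 peaks. The nearest start was not always that of a peak's own unit. In the late spacer of the RNA18SN3 copy, chr21:8413223-8413816 was set at -19.7 kb, before RNA45SN1. Its match from the 18S start, chr21:8230357-8230822, was at 24.6 kb from RNA45SN2, so the pair was not joined. Peaks of pseudogene copies fell up to 52.7 kb past a 45S start, beyond the longest unit of 45.1 kb. The shared position at 52.4 to 52.7 kb was of this kind. The position that all 5 complete copies shared lay 15.7 to 17.3 kb past the 45S start and held 8 peaks, with pileups from 39.9 to 226.82. A second, at 20.4 to 20.7 kb, was shared by 4 copies with pileups of 58.4 to 141.16. Measured instead from the last 18S copy, a choice made after seeing the data, there were 32 positions, of which 17 were shared and held 49 peaks. The copies are near-identical in sequence and the peaks are dense in the unit, so a shared position is a description, and what placement alone would give was not computed.

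The peaks with the highest pileup of the members were all in ribosomal spacer. The highest was GL000220.1:137488-138175 at 241.43, 28.8 kb past the 18S start, with a fold enrichment of 2.07. KI270733.1:140536-140935 had 228.77, and GL000220.1:121519-122307 and GL000220.1:122540-122942 had 226.82 each. On chromosome 21 the highest was chr21:8413223-8413816 with 212.22, near the CDC27 pseudogene CDC27P10. The lowest FDR of the list, 7.5e-50, was that of KI270733.1:138989-139473, which had a pileup of 199.57, a fold enrichment of 4.01 and a position 13.3 kb past the 18S start. It was followed among the members by GL000220.1:122540-122942 (1.5e-44), KI270733.1:140536-140935 (9.7e-42), chr21:8413223-8413816 (1.9e-30) and GL000220.1:121519-122307 (1.2e-28).

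Counts can be read behind these values. Every pileup divided by 0.9735 came within 0.0082 of a whole number, and this divisor was taken as the worth of 1 IP fragment. Further, 78 of the 98 members with a background of 10 or more had a background within 0.01 of a whole number, read here as the number of input fragments over the summit. KI270733.1:138989-139473 then had 205 IP fragments (exact 95% interval, 178 to 235) against 49 of the input (36.3 to 64.8), a scaled ratio of 4.07 (2.97 to 5.68). GL000220.1:137488-138175 had 248 against 116, a ratio of 2.08 (1.66 to 2.62). Over the 78 peaks the ratio ran from 2.02 to 4.07 with a median of 2.38. A peak is listed where the IP is high, so these ratios describe chosen positions, and the reading of whole numbers as input fragments was not checked against the reads.

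**Figure D3:**
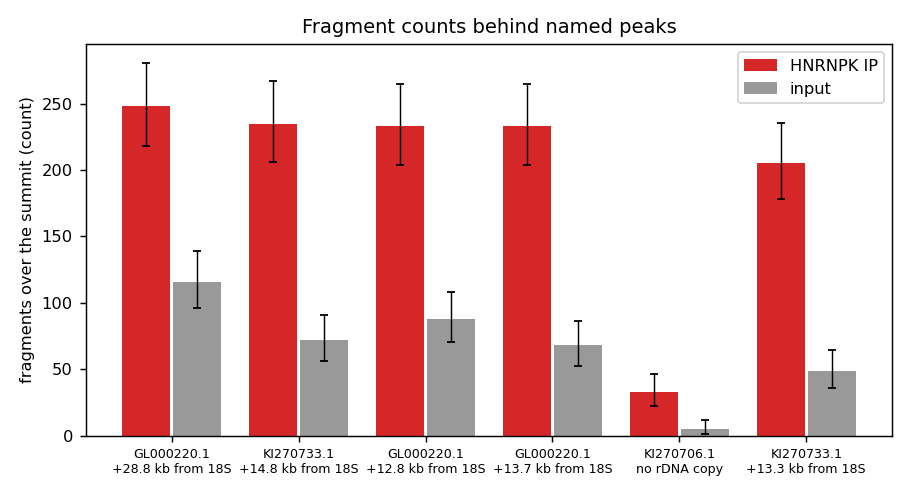
Bars give IP and input fragment counts over the summit of 6 named peaks with a whole-number background, with exact 95% Poisson intervals; labels give the sequence and the distance from the 18S start. In each of them the IP count is above the input count, with 248 against 116 as the pair of highest counts and 33 against 5 as the lowest.

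On chromosome 21 below 9 Mb, 18 of the 56 peaks overlapped an annotated gene and 41 lay within 5 kb of one, or 32.1% and 73.2%. Over the rest of the chromosome the shares of 255 peaks were 55.3% and 67.8%. The genes overlapped numbered 12 of 92, or 13%, against 13.9% of 743, and they held 0 of the 17 protein-coding genes (0% to 18.4%), against 68 of 221, or 30.8%, on the rest of the chromosome. Apart from the ribosomal RNA genes they were the long noncoding RNAs LOC101928576, LOC102724701 and LINC01666, and the pseudogenes LOC110467529 and CDC27P10. CDC27P10 lies in the ribosomal spacer and overlapped peaks with pileups of 116.82, 166.47 and 83.7. LOC110467529 overlapped a peak with a pileup of 124.61 and a fold enrichment of 3.22. MIR3648-1, inside RNA45SN2, was 52 bp from a peak with a pileup of 132.39.

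Outside the ribosomal copies the 17 chromosome 21 peaks had a median pileup of 10.7 and a median local background of 2.0, nearer to the 7.79 and 1.16 of the rest of the chromosome than to the copies. Of these, 5 had an FDR under 0.05, or 29.4% (13.3% to 53.1%), an interval that holds both the 15.5% of the whole list and the 16.1% of the rest of chromosome 21. The peak in LOC101928576, chr21:5101181-5101800, had a fold enrichment of 5.25 and an FDR of 0.0046. The one in LINC01666 had a fold enrichment of 4.55 and that in LOC102724701 3.25, with FDRs of 0.0051 and 0.34. Other nearest genes were LOC124905052 (1215 bp), LOC124900468 (1829 bp), CTBP2P11 (2004 bp), LOC107985475 (3517 bp), LOC102723475 (860 bp) and MIR10396A (4254 bp). Beside peaks in the ribosomal spacer they included the pseudogenes CDC27P9 (1303 bp) and CDC27P11 (4664 bp). They also included the microRNA genes MIR6724-1 (1250 bp), MIR6724-3 (2270 bp) and MIR6724-4 (2098 bp).

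A further piece with the unit's landmarks lies next to the 9 Mb limit. The starts of MIR3648-2 and MIR10396A are 618 bp apart there. Counting back from each by its offset in a 45S gene gives 45S start sites that differ by 1 bp. Peaks chr21:8991919-8992258 and chr21:8992609-8992869 would then sit 7.57 and 8.22 kb past that start. Their pileups were 20.4 and 14.6, at or below the lowest pileup in a copy, 20.4, and their FDRs were 0.10 and 0.40. These are also the last peaks inside the limit, and the first outside it, at 9031719, had a pileup of 17.5 and an FDR of 0.41.

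Promoter windows of the RefSeq table, from 250 bases before to 50 after a gene start, numbered 36 for 30 genes below 9 Mb, and 0 of them overlapped a member peak. Of all 35116 windows 1.67% overlapped a listed peak, so a count of 0 in 36 shows no difference. The nearest was that of LOC101928576, 606 bp from its peak. On either strand, GCGAGG was in 12 of the 36 windows (33.3%, 20.2% to 49.7%) and in 22% of all windows. CTAATG was in 1 of them, against 6.49% of all. CCCTC was in 63.9% and 71.2%, and TCCC in 97.2% and 96.0%. Such matches are of letters in windows that hold no member peak.

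Contigs differed widely in local background. Among the 19 contigs with 5 or more peaks, 6 had a median background of 10 or more, and these were the ribosomal KI270733.1 and GL000220.1 with GL000214.1, GL000225.1, GL000224.1 and KI270744.1. GL000214.1 had 14 peaks, with a median background of 22, and 10 of them stood in a stretch at 117466-137562 with pileups of 46.7 to 144.08. The other 4 had backgrounds of 1.79 to 10, so the contrast in background lay within a contig. They were not all weak, as GL000214.1:64850-65309 had a pileup of 53.5. It also had the contig's highest fold enrichment, 4.96, and lowest FDR, 1.5e-16. KI270744.1 had 12 peaks, of which 6 at 110123-122894 had backgrounds of 11.2 to 55.0. On GL000224.1, 6 of 10 peaks were in the stretch 413-17262, with backgrounds of 11.2 to 31.0, and on GL000008.2, 3 of 11 were at 47-3831, with backgrounds of 14.0 to 21.9, while its other 8 had 1.70 to 9.97. GL000225.1 had 8 peaks and its median fold enrichment, 2.13, was the lowest of these contigs.

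**Figure D4:**
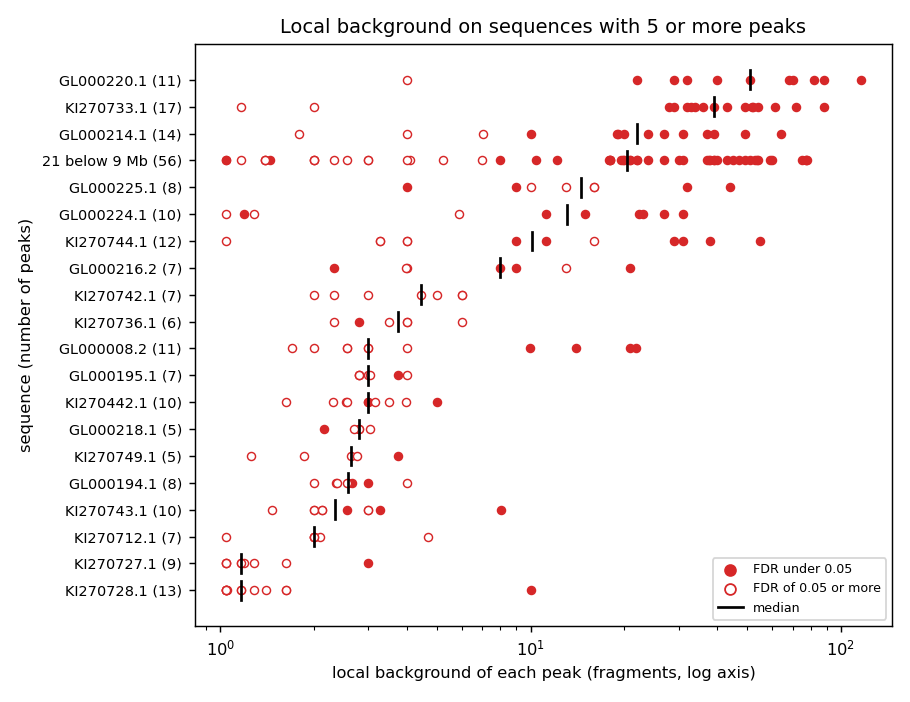
Each point is 1 peak, placed by its local background in fragments on a log axis, for the chromosome 21 region and the 19 contigs with 5 or more peaks (number in parentheses); filled points have an FDR under 0.05 and black bars are medians. Medians run from 1.16 on KI270728.1 to 51.0 on GL000220.1.

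At the other end, KI270728.1 with 13 peaks and KI270727.1 with 9 had a median background of 1.16 and 1.17, like the rest of chromosome 21, and median fold enrichments of 3.71 and 3.90. Of their peaks 3 and 2 had an FDR under 0.05, or 23.1% and 22.2%, against 15.5% of the whole list. In between were GL000008.2, KI270743.1, KI270442.1, GL000194.1, GL000195.1, GL000216.2, KI270712.1, KI270742.1, KI270736.1, GL000218.1 and KI270749.1, with median backgrounds of 2.0 to 8.0. KI270743.1 had 6 of 10 peaks with an FDR under 0.05, and KI270742.1 had 0 of 7, beside 15.5% of the whole list.

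The remaining 75 peaks were on 37 contigs with fewer than 5 peaks. Their median background was 2.28, and 24 of them had an FDR under 0.05, where 15.5% of the whole list did. The 14 contigs with 1 peak had fold enrichments of 2.63 to 5.08, with a median of 4.09, and 7 of those 14 peaks had an FDR under 0.05. Of the 56 contigs, 17 had no peak under that threshold.

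The 5 members with the highest fold enrichment lay outside the ribosomal DNA, at local backgrounds of 1.21 to 5.0. GL000009.2:18861-19114 had 7.27, with 16 IP fragments over a background of 1.28 and an FDR of 9.7e-08. KI270750.1:71132-71419 had 6.61, KI270743.1:135470-135739 had 5.75 and chr21:8815505-8815754 had 5.59. KI270706.1:165339-165634 had 5.52, with 33 IP fragments against 5 of the input, and the lowest FDR of these, 2.8e-11. These 5 peaks rest on 13 to 33 IP fragments each, and the exact 95% interval of the 16 fragments is 9.15 to 26.0.

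High background was frequent in the members. Of the 144 peaks of the list with a local background of 10 or more, 98 were members, or 68.1% (60.1% to 75.1%), 62 of them in ribosomal DNA and 36 elsewhere on contigs. From a background of 5 the members made 31.1% of 396 peaks, so their majority held at 10 and not at 5. The other 46, on 18 chromosomes, had a median fold enrichment of 2.39, against 2.42 in the 98 members. Their highest background, 52.0, was at chr7:56373416-56373798. The cut of 10 was applied to the background as worked out. Members on KI270728.1, GL000214.1 and GL000225.1 at 9.99956, 9.99963 and 9.99986, read as 10 input fragments, therefore fell just under it. Other peaks of the list just under 10 were not counted here.

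Comparing peaks of like background narrowed the difference in FDR. Below a background of 2, 19.2% of the members (12% to 29.3%) had an FDR under 0.05, against 14.1% of the other peaks. From 2 to under 5 the shares were 35.5% (27.1% to 44.9%) and 17.2% (16.1% to 18.4%). From 5 to under 10 they were 44.0% and 33.5%, and from 10 they were 92.9% (86.0% to 96.5%) and 69.6% (55.2% to 80.9%). In the highest band the members also had the higher median background, 32.0 against 15.9. The bands were chosen after seeing the data. Intervals overlapped in the lowest band and in that from 5 to under 10, and without the ribosomal DNA also in the highest, where the share was 80.6% (65.0% to 90.2%).

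**Figure D5:**
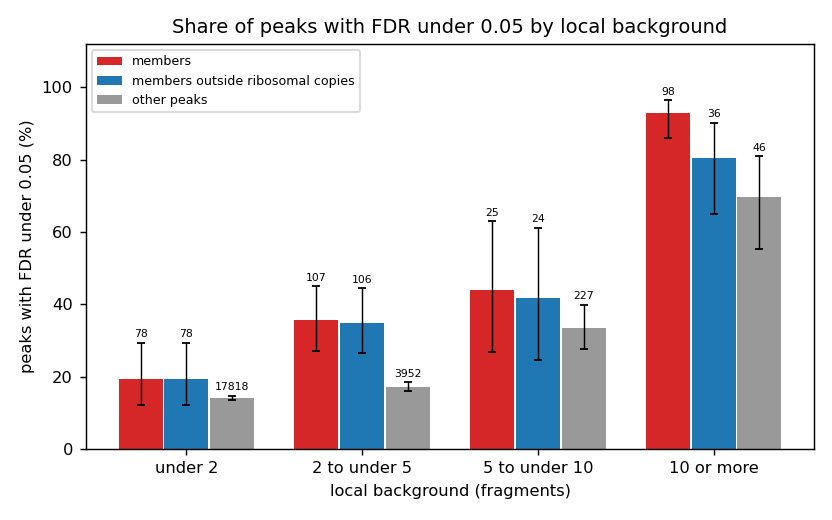
Share of peaks with an FDR under 0.05 by local background in fragments, with Wilson 95% intervals and the number of peaks above each bar, for the members (contigs and chromosome 21 below 9 Mb), the members outside ribosomal copies and all other peaks. Shares in the members rise from 19.2% to 92.9%.

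Neighbouring members were a median of 5759 bp apart, and 41 of 251 gaps, or 16.3%, were under 1 kb, beside 36421 bp and 4.52% in the other peaks. Most members are on short contigs, which bound the gap between neighbours, so no difference in spacing is read from these values. Peak numbers run to 22444, and of the 93 that are absent, 67 fall between members, 24 of them on chromosome 21, 14 on KI270733.1 and 13 on GL000220.1. Set against listed plus absent peaks, this is 17.9% among the members and 0.118% elsewhere. The list holds no fold enrichment under 2.0, and the values of the absent peaks were not used here.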

How the data were processed

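Peaks of 1 HNRNPK IP library called against 1 input library of untreated H1299 cells were used as deposited, with GRCh38 positions. The submitters' processing notes name Trimmomatic 0.36, STAR 2.5.3a, MACS2, bedtools and HOMER, with no role or threshold. Fold enrichment as deposited is the ratio of the pileup to a local background, each plus 1. The FDR, an adjusted p-value (q-value) from the peak caller, is deposited on a linear scale. Pileup as deposited is a coverage signal of the IP in scaled fragments. Peak names spell the cell line differently, and the list was assigned to the only IP. From these columns the local background, fragment counts, offsets and shares were computed with scipy 1.17.1, pandas 2.3.3, numpy 2.4.6 and matplotlib 3.10.9 under Python 3.11.15. The computations were tested on simulated data. Intervals are 95% (Wilson for shares, binomial order statistics for medians, exact for counts) and cover counting error only. Library totals were not analysed here, so depth was read from the pileups. Regions named were the chromosome 21 region, contigs with 5 or more peaks, and the 5 peaks leading by pileup, fold enrichment or FDR. Genes named were the ribosomal RNA genes and the gene that a peak overlaps or is nearest to within 5 kb. Members and lists were chosen with earlier results of these data known.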

Additional observations from a re-analysis of the deposited data

How the results depend on the processing

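Of 38 alternatives to 7 results, 19 left the value inside its interval, or a count within 1.5 times, and 19 moved it. Of the 38, 9 were chosen after seeing the data. Some could shift a value in a single direction only, since a stricter FDR cannot raise a share and a subset cannot raise a count. The background bands are parts of the same members, so the tally does not measure robustness. Chromosome 21 below 9 Mb alone had 56 members, a median background of 20.5, a median fold enrichment of 2.72, a median pileup of 58.9 and an FDR share of 78.6%. Contigs alone had an FDR share of 44.0%. Members with an FDR under 0.05 had a median background of 19.8. Leaving out the ribosomal DNA copies, an added choice, gave medians of 2.80 for background, 3.38 for fold enrichment and 12.2 for pileup, with 37.3% under the FDR threshold. An FDR under 0.01 held for 41.9% of the members and under 0.001 for 31.8%. The whole list had 15.5% under 0.05 and 1.08% at 1e-05 or below. Its shares at 0.01 and 0.001 were not computed here. By background, also added, the FDR share was 19.2% below 2, 35.5% from 2 to under 5, 44.0% from 5 to under 10 and 92.9% from 10. The members' share of high-background peaks was 31.1% from a background of 5 and 80.9% from 20. The cause of these shifts was not tested. Shared ribosomal positions were 9 at 250 bp, 10 at 1000 bp and 17 from the last 18S copy. With 1 library of each kind no replicate could be left out, and fragment counts limit single peaks at low background most.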
